A study of Mus musculus with 12 samples.

Results

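The Egr and Nr4a genes encode transcription factors that T cells make within minutes to hours of a signal through the antigen receptor. All probe sets that the array's annotation assigns to Egr1, Egr2, Egr3, Nr4a1, Nr4a2 or Nr4a3 and to no other gene were taken. They numbered 15 of 45101 probe sets on the array, for 6 of 18193 genes with a name. Egr1 and Nr4a1 had 1 probe set each, Egr2 and Egr3 had 2 each, Nr4a3 had 3 and Nr4a2 had 6. The choice of genes used no measured value, although it was made with earlier results of these data known.

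Transcript levels were measured in CD4+ T cells of female mice with 12 Affymetrix arrays that cover the mouse genome. There were 4 groups of 3 arrays each, in a series on Th17 cells, the helper T cells that make IL-17. In the SKG group, lymph node cells came from SKG mice at 40 weeks of age; this strain carries a point mutation in Zap70, a kinase of the T cell receptor, on a BALB/c background. The BALB group was of BALB/c mice at the same age. Cells of both groups are labelled as stimulated with PMA, which activates protein kinase C, and ionomycin, which raises calcium, with dose and duration not given in the sources used here. They were sorted as CD4+ cells without FR4, a folate receptor found on regulatory T cells, with 1 exception: the label of BALB replicate 1 gives spleen and lymph node as the tissue and names no FR4 sort. The other groups were spleen CD4+ T cells recovered 7 days after transfer into mice without T and B cells of their own, labelled with an age of 7 weeks and with no stimulation named. The IFN-γ-deficient transfer placed CD4+ cells of IFN-γ knockout BALB/c mice into RAG2 knockout BALB/c hosts. The IL-6-deficient transfer placed CD4+ cells of IL-6 knockout BALB/c mice into IL-6 and RAG2 double knockout hosts, so donor and host genotype differ together between the transfers. Nothing in the labels says that the 3 replicates came from separate animals, so the p-values reflect array-to-array spread that may be technical only.

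Egr1, Egr2 and Egr3 are zinc finger proteins that bind GC-rich sites. Their transcription is driven mainly by ERK signalling, through serum response factor and its partners on CArG boxes, and for Egr2 and Egr3 also by calcineurin and NFAT. In T cells Egr2 and Egr3 are known for roles in anergy and in restraining activation. Nr4a1 (Nur77), Nr4a2 (Nurr1) and Nr4a3 (Nor1) are orphan nuclear receptors, known for roles in cell death during thymic selection, in regulatory T cells and in dysfunctional T cells. Their transcription depends on calcium through MEF2 and on CREB. PMA and ionomycin enter these pathways below the receptor and below Zap70.

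The 250 bases before the RefSeq transcription start (mouse assembly GRCm38.p6) are shown for 4 members of 6, Egr2 and the Nr4a genes. The search for windows of the members left out a chromosome by rule and gave none for Egr1 or Egr3. Their absence thus does not show that the promoter table lacks both. The windows were printed with the expression values known and are given as a description of sequence. Egr3, which fell in SKG as the Nr4a genes did, has no window here. The role of these sequences in the expression values was not tested. The sequences are written 5′ to 3′ on the strand of the gene. The windows lie at chr10:67537619-67537868 on the plus strand for Egr2, chr15:101266596-101266845 on the plus strand for Nr4a1, chr2:57124004-57124253 on the minus strand for Nr4a2 and chr4:48045055-48045304 on the plus strand for Nr4a3. Capitals mark matches to a CArG box (the serum response element), a MEF2 site, GCGNGGGCG (the binding site of Egr proteins) and TGACG, the core shared by partial sites of the CREB element, which reads CGTCA on the other strand. Egr2 has 5 start sites in the table, and the window with the most matches is shown.
Egr2: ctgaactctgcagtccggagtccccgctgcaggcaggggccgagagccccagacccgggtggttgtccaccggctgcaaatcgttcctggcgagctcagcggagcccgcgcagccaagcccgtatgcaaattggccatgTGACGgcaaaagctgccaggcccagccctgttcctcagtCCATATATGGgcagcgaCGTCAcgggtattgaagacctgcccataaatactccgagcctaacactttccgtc
Nr4a1: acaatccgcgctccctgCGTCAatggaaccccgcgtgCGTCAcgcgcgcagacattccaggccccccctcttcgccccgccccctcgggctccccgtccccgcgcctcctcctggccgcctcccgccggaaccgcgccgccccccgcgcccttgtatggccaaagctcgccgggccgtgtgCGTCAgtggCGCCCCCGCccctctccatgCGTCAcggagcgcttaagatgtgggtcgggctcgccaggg
Nr4a2: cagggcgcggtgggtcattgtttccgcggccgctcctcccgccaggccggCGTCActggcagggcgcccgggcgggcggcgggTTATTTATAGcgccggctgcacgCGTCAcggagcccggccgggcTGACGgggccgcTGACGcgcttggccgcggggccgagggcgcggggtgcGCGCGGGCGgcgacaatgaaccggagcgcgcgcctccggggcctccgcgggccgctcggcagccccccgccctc
Nr4a3: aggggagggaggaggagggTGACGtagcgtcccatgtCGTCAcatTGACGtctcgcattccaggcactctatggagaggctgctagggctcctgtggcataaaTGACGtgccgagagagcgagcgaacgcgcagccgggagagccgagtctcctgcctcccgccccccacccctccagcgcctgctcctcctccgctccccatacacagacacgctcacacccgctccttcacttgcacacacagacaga
All motifs were searched on both strands; TGACG is also the first part of TGACGTCA. The Egr2 window held a CArG box 72 bases before the start and 2 TGACG cores. A CArG box occurred in 1.47% of 32851 windows of 250 bases. The Egr2 window was chosen for its matches, so this share is not a like comparison for it. Each of the Nr4a windows held 4 TGACG cores, whereas 17.8% of all windows held at least 1 and 0.137% held at least 4, a number chosen after the Nr4a windows were read. The full element TGACGTCA, present in 1.55% of windows, was in none of the 4 windows shown. The windows of Nr4a1 and Nr4a2 each held 1 GCGNGGGCG site (4.7% of all windows), the one in Nr4a1 read on the other strand. Nr4a2 also held 1 MEF2 site (2.92% of all windows). AAAGGTCA, the element that an Nr4a monomer binds, occurred in 1.34% of windows and in none of these 4. The matches are descriptions of sequence and were not tested for binding.

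The deposited intensities, with software and scaling not given in the sources used here, had medians of 15.7 to 27.6 per array. T cell markers were bright on all 12 arrays, with Cd2 between 3958.9 and 7288.9 and Cd3d between 1351.5 and 1970.2, while Cd4 itself read 69.7 to 497.8. The 10 macrophage and monocyte markers on the array summed to 141.9 to 303.4 on every array. Among the labelled genes, Ifng was 9.42 ± 0.48 (SD, n = 3, log2 scale) in the IFN-γ-deficient transfer against 13.57 ± 0.023 in the IL-6-deficient transfer. Il6 was 4.56, 4.77 and 6.84 on the arrays labelled IFN-γ-deficient and 5.67, 5.84 and 8.03 on those labelled IL-6-deficient, in the order of replicates 1 to 3. It was thus higher, not lower, under the IL-6-deficient label in all 3 same-numbered pairs (limma adjusted p = 1.0, and 0.015 with the replicate number as a block). The labels do not give the deleted part of the gene, and a probe set outside it does not check the label, so the transfer groups are named here only as labelled. Zap70 was 10.91 ± 0.12 in SKG and 11.51 ± 0.24 in BALB; the SKG mutation is a base change, so its level does not check the label. The transfer arrays of replicate 3 stood apart from replicates 1 and 2. Their 3′ to 5′ signal ratio of beta-actin, a measure of RNA integrity, was 3.81 and 5.13 against 1.60 to 1.67, and that of Gapdh was 7.99 and 9.33 against 2.42 to 2.84. Results below are therefore also given without replicate 3 where it matters. In the order of replicates 1 to 3, the beta-actin ratio was 3.04, 2.95 and 3.98 in BALB and 2.12, 1.93 and 2.63 in SKG. Every BALB array was thus above every SKG array. The Gapdh ratio overlapped, at 2.86 to 3.28 in BALB and 2.57 to 3.03 in SKG. The role of the beta-actin difference in SKG against BALB was not tested.

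All 6 genes were among the brighter transcripts. Egr2 lay between the 99.3 and 99.5 percentile of all probe sets on every array. Nr4a3 lay between the 97.8 and 99.9 percentile and Nr4a1 between the 95.2 and 99.5 percentile. Egr1 ranged from the 93.1 to the 98.7 percentile, Nr4a2 from the 88.3 to the 99.2 and Egr3 from the 85.2 to the 99.0. The transfer arrays, which carry no label of stimulation, thus also held high levels of these early transcripts. For comparisons the arrays were quantile normalized, which gives all arrays 1 distribution of values, and log2(intensity + 16) of the brightest probe set stood for each gene. Fold changes on this scale understate the change of dim genes.

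**Figure D1:**
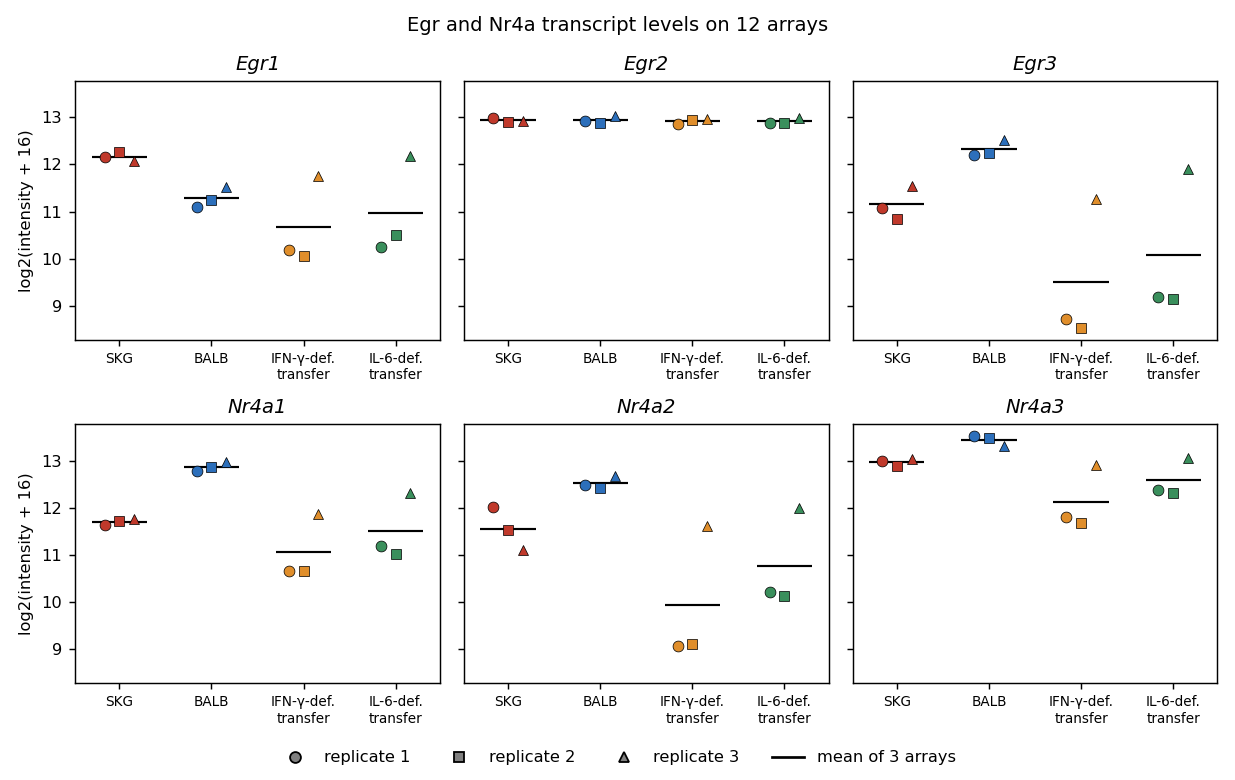
Normalized level, log2(intensity + 16), of the 6 genes on each of the 12 arrays, with replicates 1, 2 and 3 as circle, square and triangle and the group mean of 3 arrays as a bar. Egr2 is level across the groups, Egr1 is highest in SKG, the other 4 genes are highest in BALB, and the triangles of both transfer groups stand well above their circles and squares for every gene but Egr2.

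In stimulated cells of SKG mice, 5 of the 6 genes differed from BALB cells, and not all in 1 direction. Egr1 rose, while Egr3, Nr4a1, Nr4a2 and Nr4a3 fell, and Egr2 did not pass the test. A gene was called where limma's Benjamini-Hochberg adjusted p over all 12073 tested genes was under 0.05. Of all tested genes 27.5% were called, 15.8% higher and 11.8% lower in SKG, so 1 rise and 4 falls among 6 genes stand beside a background in which changes were frequent.

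Egr1, a broad reporter of ERK activity, read 3914.5, 4181.4 and 5313.5 on the SKG arrays, in the order of replicates 1 to 3, and 2089.2, 2267.5 and 3728.2 on the BALB arrays. Every SKG array was above every BALB array. After normalization the means were 12.20 ± 0.09 (SD, n = 3) and 11.31 ± 0.22, a difference of 0.89 ± 0.13 on the log2 scale (SE; adjusted p = 0.0017 by limma), or 1.85-fold. Of all tested genes, 24.9% were higher without overlap in the same way.

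Egr3, a target of NFAT and a partner of Egr2 in restraining T cell activation, went the other way. Its intensities were 1839.9, 1577.2 and 3576.3 in SKG and 4386.5, 4520.9 and 7983.8 in BALB. The highest SKG array lay below the lowest BALB array, as was so for 18.4% of all tested genes after normalization. The log2 fold change was -1.19 ± 0.18 (SE, limma adjusted p = 0.0019), or 2.27-fold lower. Its other probe set, 1421486_at, read 4.8 to 43.3 over the 12 arrays and carries little signal; it was also called lower in SKG when all probe sets were fitted separately, at -0.91 ± 0.26.

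Egr2, which encodes the closest relative of Egr3 in T cells, read 6612.2, 6400.2 and 10182.7 in SKG and 6940.2, 6855.9 and 11366.2 in BALB. The groups overlapped. The log2 fold change was -0.0084 with a 95% interval from -0.18 to 0.16 (limma adjusted p = 0.95), so a change of the size seen for Egr1 or Egr3 lies outside the interval. The other Egr2 probe set, 1427682_a_at, read 3586.2 to 8593.3 over the 12 arrays and gave -0.26 ± 0.13 (limma adjusted p = 0.20).

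Nr4a1, a widely used reporter of receptor signal strength, read 2684.9, 2865.0 and 4186.6 in SKG and 6373.2, 6773.0 and 11041.2 in BALB. No SKG array reached the lowest BALB array. It fell by 1.18 ± 0.09 on the log2 scale (SE, limma adjusted p = 0.00012), or 2.27-fold, and the 3 same-numbered pairs differed by -1.17, -1.16 and -1.23.

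Nr4a2 read 3535.4, 2565.3 and 2629.3 in SKG and 5331.3, 5040.9 and 8835.6 in BALB on its brightest probe set, 1455034_at. The groups did not overlap, and the SKG arrays varied more than those of the other members, with a normalized mean of 11.58 ± 0.46 (SD, n = 3) against 12.56 ± 0.14. It fell by 0.97 ± 0.21 (SE, limma adjusted p = 0.0084). The other bright probe sets of Nr4a2 gave larger differences, -1.80 for 1447863_s_at, -1.37 for 1450750_a_at and -2.21 for 1450749_a_at, with all probe sets fitted separately. The sets 1433422_at and 1433423_at, dim at 0.9 to 49.9 on every array, were not called. The size of the Nr4a2 change thus depended on the probe set, while its direction was shared by the 4 bright ones. With all probe sets fitted separately, 9.88% of 27022 were called lower.

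Nr4a3 read 6689.9, 6322.0 and 11031.7 in SKG and 9964.8, 9783.1 and 13995.6 in BALB. The deposited values overlapped, since SKG replicate 3 lay above BALB replicates 1 and 2, whereas the normalized values did not. It showed the smallest called change of the 6 genes, -0.45 ± 0.08 (SE, limma adjusted p = 0.0048). The other Nr4a3 probe sets were dim: 1421079_at, at 7.9 to 49.7, gave -0.76 ± 0.23, and 1421080_at, at 3.7 to 22.8, was too dim in these groups to be tested.

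**Figure D2:**
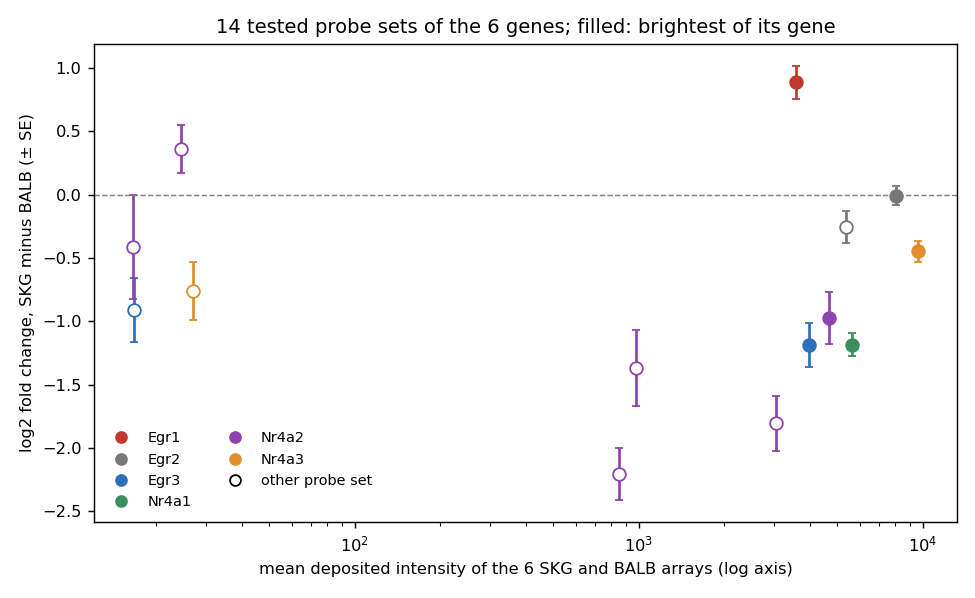
Log2 fold change (± SE) of SKG over BALB against the mean deposited intensity of the 6 SKG and BALB arrays (log axis) for the 14 tested probe sets of the 6 genes, the brightest of each gene filled. The 3 open Nr4a2 points of mid to high intensity lie below the filled one at -0.97, and the 4 dim points at the left are near the floor of the array.

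These calls rested on the choice of fit to a degree. All 5 calls held when any 1 array was left out, BALB replicate 1 included, without which Egr1 was at 0.79 and Nr4a1 at -1.25. With all 12 arrays in 1 fit, whose spread includes the transfer arrays, only Nr4a1 was called (limma adjusted p = 0.023). The fold changes of the others stayed alike while their errors grew: Egr1 was at 0.88 (limma adjusted p = 0.21), Egr3 at -1.18 (0.28), Nr4a2 at -0.97 (0.28) and Nr4a3 at -0.47 (0.24). Without normalization between arrays the calls of Egr1, at 0.76 (limma adjusted p = 0.083), and Nr4a3, at -0.52 (0.28), were lost. Without the intensity trend in the variance that of Nr4a3 was lost (0.057).

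Markers of other cells also differed between SKG and BALB. The summed intensity of 9 B cell markers was 3494.9 to 5651.5 in SKG and 660.7 to 3200.7 in BALB, and of the 7 tested Ighm alone passed, rising by 1.94, while Cd79a, a part of the B cell receptor, read 0.9 to 24.1 over all 12 arrays. The 5 plasma cell markers summed to 6263.5 to 7648.7 and 2825.1 to 4745.4, and Xbp1 and Prdm1, which activated T cells also express, and Derl3 rose, while Sdc1, which did not pass, was at -0.64. The NK cell markers summed to 757.2, 676.0 and 165.6 in SKG and 107.2 to 185.9 in BALB, mostly from Eomes, which activated T cells can also express and which was at 1.63 and passed only with the replicate block; Ncr1, Klra8 and Klre1 did not exceed 26.3 on any array. The dendritic cell gene Zbtb46 rose by 0.75, a call lost with the block, and the 5 markers of that cell type summed to 73.5 to 98.6 and 66.5 to 83.4. Of the CD8 markers Cd8b1 fell by 2.49 and Cd8a, which did not pass, was at 0.81; their sum was 25.3 to 142.6 in SKG and 217.3 to 285.9 in BALB. The 9 T cell markers summed to 16491.2 to 23846.5 in SKG and 18801.5 to 23681.4 in BALB, of which Trat1 rose and Cd5 and Cd247 fell; Cd3g, at 1.06, and the macrophage gene Cd68, at -0.61, passed only with the block. The role of these differences in the Egr and Nr4a values was not tested, and in bulk samples fewer cells that express a gene and less of its RNA per cell cannot be told apart.

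The fall extended to other immediate-early genes, whose transcription needs no new protein. Of 36 on a list of such genes, 17 fell and 0 rose in SKG, or 47.2% against 11.8% of all tested genes, with a median log2 fold change of -0.41 against 0.06 over all. Dusp1, a phosphatase of MAP kinases, fell by 2.40 ± 0.15 (SE), Jun, an AP-1 subunit, was at -2.21 ± 0.18, Maff, a small Maf factor, at -1.89 ± 0.14 and Csrnp1 at -1.28 ± 0.10 (limma adjusted p between 5.2e-05 and 0.00013). The count of falls ran from 16 to 19 when any 1 array was left out. The count of rises was 3 without SKG replicate 3 and 0 without any other single array. In the fit of all 6 arrays Egr1 was called higher and none of the 36 listed genes was; with the block 1 rose, Dusp6, and 19 fell.

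**Figure D3:**
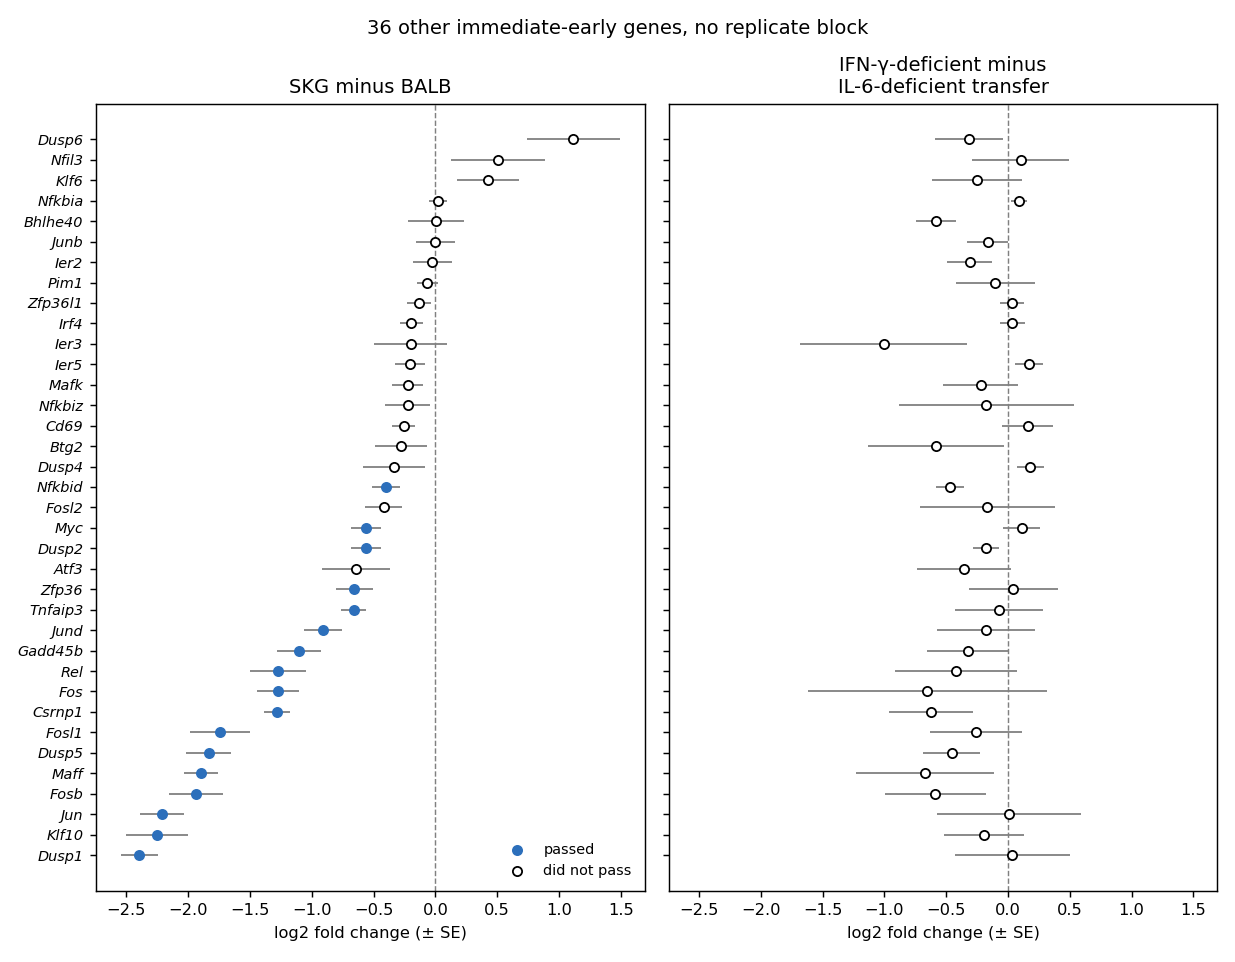
Log2 fold change (± SE) of the 36 other immediate-early genes in SKG over BALB (left) and in the IFN-γ-deficient over the IL-6-deficient transfer (right), with filled points for genes that passed the limma test without the replicate block. All 17 filled points lie left of 0 in the SKG panel, and the transfer panel has none.

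Regulators upstream of these genes moved in both directions. Of 18 tested genes on the path to Egr transcription, 4 rose (22.2%, against 15.8% of all tested genes) and 6 fell (33.3%, against 11.8%), with a median of -0.19. Spry1, an inhibitor of ERK signalling, fell by 1.07 ± 0.14 (SE), as did Prkcd, a protein kinase C, at -1.28 ± 0.18, Elk4, a partner of serum response factor, at -0.66 ± 0.13 and Map2k1, the kinase of ERK, at -0.60 ± 0.12. The count of rises was 0 without SKG replicate 2 or BALB replicate 1, and 1 without SKG replicate 1, BALB replicate 2 or BALB replicate 3. Of 19 tested regulators of Nr4a transcription, 2 rose (10.5%, below the share of all genes) and 6 fell (31.6%), with a median of -0.15, and the falls numbered 1 without SKG replicate 1, 2 without BALB replicate 1 and 3 without BALB replicate 2. Hdac5, a repressor of MEF2, fell by 1.30 ± 0.18 and Nfatc1, a calcium-responsive factor, was at -0.73 ± 0.16, while the factor Creb1 rose by 1.03 ± 0.14 and Ppp3cb, a calcineurin catalytic subunit, by 1.12 ± 0.16. Among 8 tested relatives and partners of the factors, 1 passed, or 12.5%, a share near that of all genes: Nab1, a corepressor of Egr proteins, rose by 0.97 ± 0.18.

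The reported targets of Egr2 and Egr3 moved in both directions, and the genes linked to Nr4a factors in 1. Of 21 tested genes reported as targets of Egr2 and Egr3 in T cells, 4 rose (19.0%, near the 15.8% of all genes) and 7 fell (33.3%, against 11.8%), with a median of 0.04; with the block 5 rose and 9 fell. Ccl1, a chemokine, rose by 4.22 ± 0.32 (SE), whereas Ndrg1, an anergy factor, fell by 2.76 ± 0.30, as did Cdkn1a, a cell cycle inhibitor, at -2.51 ± 0.28 and Id3, an inhibitor of E proteins, at -2.04 ± 0.24. Of 15 tested genes reported as linked to Nr4a factors in T cells, 11 rose and 0 fell in SKG, where the Nr4a transcripts themselves were lower. That share, 73.3%, stands beside 15.8% of all tested genes, and the median was 1.02. Gzmb, a granzyme, rose by 3.20 ± 0.22, Ikzf2, encoding Helios, by 2.76 ± 0.31, Foxp3, the regulatory T cell factor, by 1.74 ± 0.21 and Pdcd1, encoding PD-1, by 1.43 ± 0.16. The count of rises ran from 8 to 13 when any 1 array was left out. Izumo1r, which encodes FR4, was 7.17 ± 0.18 (SD, n = 3) in SKG and 6.32 ± 0.16 in BALB. The role of remaining regulatory T cells in the values of Foxp3, Ikzf2 and the other genes linked to Nr4a factors was not tested.

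Between the transfers, 5 of the 6 genes had lower means in the group labelled IFN-γ-deficient than in the group labelled IL-6-deficient, where Il6 itself was not lower, and none passed the test. Of 12262 tested genes 0.114% were called, and at an unadjusted p under 0.05 there were 533 genes and 0 of the 6. The log2 fold changes without a block were -0.31 ± 0.61 (SE) for Egr1, 0.0032 ± 0.074 for Egr2, -0.56 ± 0.94 for Egr3, -0.44 ± 0.43 for Nr4a1, -0.82 ± 0.77 for Nr4a2 and -0.46 ± 0.34 for Nr4a3 (limma adjusted p = 1.0 for each). The wide errors came with replicate 3, which stood above replicates 1 and 2 in both groups. Without IL-6-deficient replicate 3 the differences were 0.28 for Egr1, 0.34 for Egr3, -0.040 for Nr4a1 and -0.22 for Nr4a2, and without IFN-γ-deficient replicate 3 they were -0.84, -1.42, -0.83 and -1.64, none of them called.

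Nr4a2 shows the pattern. It read 522.0, 534.1 and 2916.5 in the IFN-γ-deficient transfer and 1325.2, 1184.9 and 3975.3 in the IL-6-deficient transfer. The groups overlapped only because IFN-γ-deficient replicate 3 exceeded IL-6-deficient replicates 1 and 2. Egr3 behaved alike, with 410.6, 359.9 and 2311.4 against 657.6, 602.3 and 3775.8. Nr4a1 read 1530.5, 1492.0 and 3538.1 against 2530.5, 2171.3 and 5126.0, and Nr4a3 3360.4, 2999.0 and 7773.7 against 5471.4, 5165.6 and 9009.3. In each of these genes, as in Egr1 with 1111.6, 1000.5 and 3286.1 against 1357.3, 1535.5 and 4538.0, the IFN-γ-deficient array was the lower one in all 3 same-numbered pairs, which was so for 17.8% of all tested genes. Egr2 read 6685.7, 7051.4 and 8034.9 against 7488.2, 7331.9 and 8510.7, and after normalization its pairs had mixed signs.

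With a block for the replicate number, Egr3, Nr4a1 and Nr4a2 were called lower in the IFN-γ-deficient transfer, at limma adjusted p of 0.021, 0.023 and 0.024, beside 1.01% of all tested genes called lower. Nr4a3 (limma adjusted p = 0.052) and Egr1 (0.18) did not pass. It was not shown that same-numbered arrays are pairs, so the blocked calls are conditional on that assumption. With replicates 1 and 2 only, an alternative added after seeing the data, 4 genes passed: Egr3 at -0.52, Nr4a1 at -0.43, Nr4a2 at -1.03 and Nr4a3 at -0.59 (limma adjusted p from 0.00013 to 0.025), beside 1.97% of all genes called lower in that fit.

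**Figure D4:**
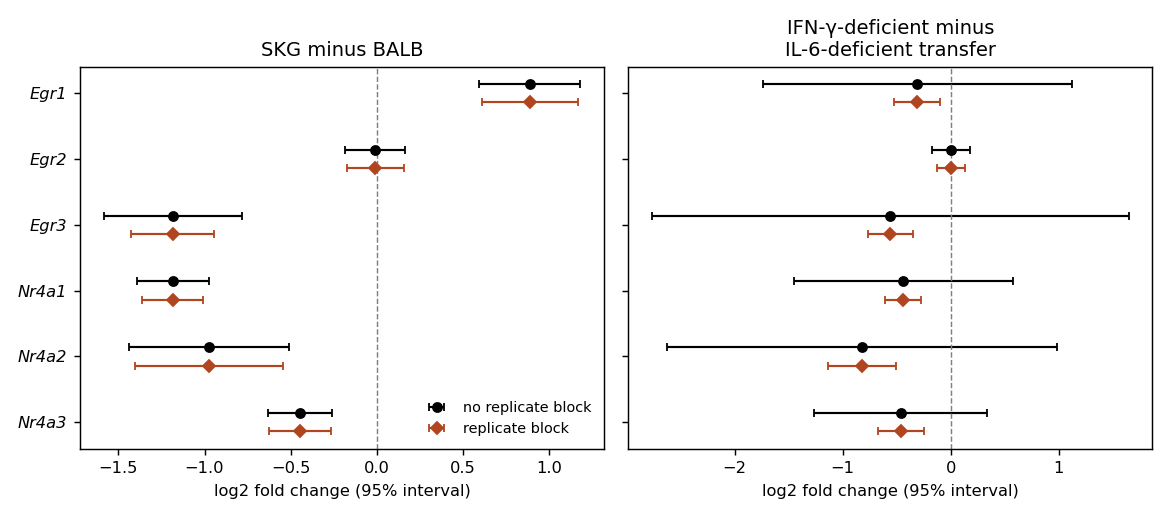
Log2 fold change with its 95% interval for the 6 genes in SKG over BALB (left) and in the IFN-γ-deficient over the IL-6-deficient transfer (right), without (circles) and with (diamonds) the replicate number as a block. The block narrows the transfer intervals of every gene, and those of Egr3, Nr4a1 and Nr4a2 pass the adjusted test with it.

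No gene of the lists passed in the transfers without the block. The listed genes with the smallest p included Fasl at -0.75, Ccl1 at -1.17, Nfkbid at -0.47 and Bhlhe40 at -0.58. With the block 6 of the 36 immediate-early genes were called lower, with Csrnp1 and Nfkbid among them. So were 4 of 22 reported Egr2 and Egr3 targets, namely Ccl1, Fasl, Cdkn1a and Sema7a. Of 19 tested regulators of Nr4a transcription 1 was called lower with the block, Crem at -0.54 (limma adjusted p = 0.030). None of the 15 genes linked to Nr4a factors passed in either fit; Gzmb was at 0.27 and Ikzf2 at 0.26.

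The rise in replicate 3 of the transfers was large for these genes. Against the mean of replicates 1 and 2, Egr3 was 2.65 higher on the log2 scale in the IFN-γ-deficient and 2.75 higher in the IL-6-deficient group, or 6.29-fold and 6.73-fold. Nr4a2 was 2.52 and 1.82 higher, Egr1 1.64 and 1.8, Nr4a1 1.22 and 1.21 and Nr4a3 1.17 and 0.69. Egr2 differed by 0.059 and 0.094. Replicates 1 and 2 of these groups differed by at most 0.25 for any of the 6 genes. A rise above 1 was seen for 5 of the 6 genes in the IFN-γ-deficient and 4 in the IL-6-deficient group, for 12 and 14 of the 36 other immediate-early genes, and for 3.43% and 4.46% of all genes. In SKG and BALB, replicate 3 differed from the others by -0.67 to 0.57 for the 6 genes. The 3′ to 5′ ratios of the transfer arrays, given above, were higher in replicate 3 as well. In the IL-6-deficient group so was a sum of 5 neutrophil markers, 1145.4 in replicate 3 against 28.9 and 115.8. In the IFN-γ-deficient group that sum was 265.1 against 102.7 and 315.3. The sum of 4 NK cell markers was higher in replicate 3 of both groups, at 159.1 against 53.6 and 52.8 in the IFN-γ-deficient and at 139.0 against 54.6 and 57.7 in the IL-6-deficient transfer. Their role in the rise was not tested.

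**Figure D5:**
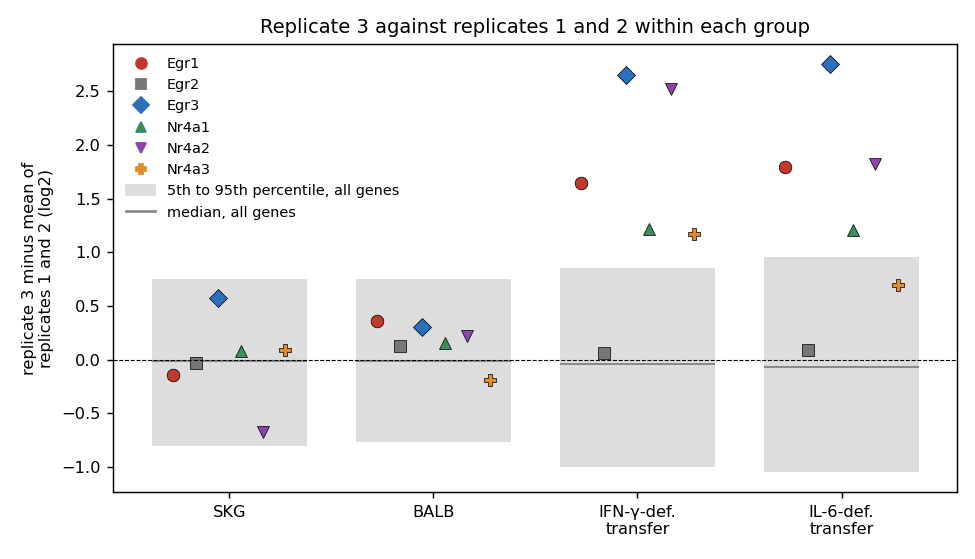
Log2 difference of replicate 3 from the mean of replicates 1 and 2 in each group for the 6 genes, over a grey band from the 5th to the 95th percentile of all genes with a line at their median. In the transfer groups Egr1, Egr3, Nr4a1 and Nr4a2 lie above the band, Egr2 stays near 0, and in SKG and BALB all 6 genes lie within it.

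The effects in the 2 comparisons, which share no array, were set against each other with an interaction term over all 12 arrays. Without a block 0 of the 6 genes passed, and 0 at an unadjusted p under 0.05, beside 8.23% of 12176 tested genes called. With the replicate block within each comparison, 3 passed beside 25.6% of all genes: Egr1 at 1.19 (limma adjusted p = 0.00054), Nr4a1 at -0.73 (0.00060) and Egr3 at -0.60 (0.0091). In the blocked fit the Egr1 effect was thus more positive in SKG against BALB than between the transfers, and those of Nr4a1 and Egr3 were more negative. Between the transfers alone Egr1 was not called in either fit, at -0.31 (limma adjusted p = 0.18 with the block). That difference was 0.28 without IL-6-deficient replicate 3. For Nr4a2 and Nr4a3 no difference between the comparisons was shown, with intervals in the blocked fit of -0.71 to 0.45 and -0.31 to 0.30. The Nr4a2 interval is that of 1455034_at alone. Under settings other than leaving out single arrays, the Nr4a2 interaction ran from -1.35 to 0.41, and it was not called. Its other bright probe sets, 1447863_s_at, 1450750_a_at and 1450749_a_at, gave -1.80, -1.37 and -2.21 in SKG against BALB. In the transfers they gave -0.97, -0.56 and -0.26.

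With the 12 arrays normalized together, Egr3, Nr4a1, Nr4a2 and Nr4a3 shared 1 order of group means: BALB, SKG, IL-6-deficient transfer, IFN-γ-deficient transfer. For Nr4a1 these means were 12.87 ± 0.10, 11.70 ± 0.06, 11.50 ± 0.70 and 11.06 ± 0.70 (SD, n = 3). Neighbouring groups overlapped in this order except BALB and SKG. Egr1 ran from SKG at 12.17 ± 0.10 to BALB at 11.29 ± 0.22, the IL-6-deficient transfer at 10.97 ± 1.05 and the IFN-γ-deficient transfer at 10.66 ± 0.95. Among neighbours in this order again only SKG and BALB were apart. The lowest SKG array, at 12.07, also lay above the highest IFN-γ-deficient array, at 11.76. Egr2 means lay between 12.91 and 12.95, and all neighbours overlapped. Labelled stimulation, age, tissue and transfer differ together between the first and the last pair of groups and cannot be told apart. No stimulation is named for the transfers, which does not show that those cells had none.

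Across the 12 arrays, which share these group differences and the replicate 3 rise, Egr3, Nr4a1, Nr4a2 and Nr4a3 correlated with each other at r of 0.94 to 0.97. Egr1 correlated with these 4 at 0.55 to 0.74 and Egr2 with them at 0.42 to 0.57. Of 12176 genes, the profiles nearest to Nr4a1 were those of Maff (r = 0.99), Riok1 and Aff1. Those nearest to Egr3 were Tut7 (0.99), Ppp3ca and Fos. Nr4a2 was nearest to Bclaf1 (0.97), Nr4a3 and Fosl2, and Nr4a3 to Errfi1 (0.99), Nr4a2 and Map3k8. Egr1 was nearest to Jak2 (0.97), Satb1 and Tet2, and Egr2, whose levels barely varied, to Slc29a4 (0.90), Csf3r and Sgpp1.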

How the data were processed

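Biotin-labelled RNA of CD4+ T cells was hybridised to 12 one-colour arrays, 3 per group. The deposited values are linear intensities, 1 per probe set, with software and normalization not given in the sources used here. RNA extraction used RNeasy and biotin labelling used in vitro transcription, per the labels.

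Of 45101 probe sets, 64 were controls, 34958 were listed with 1 gene, 932 with several and 9211 with none; symbols of 34754 were updated by gene ID to RefSeq names (GRCm38.p6). The arrays of each comparison were quantile normalized without control probe sets, as log2(intensity + 16), and the brightest probe set over 12 arrays stood for a gene. Genes with a mean at or above the 40th percentile were tested with limma 3.58.1 in R 4.3.3 (lmFit, eBayes with intensity trend, two-sided), with Benjamini-Hochberg adjustment over all genes and a threshold of 0.05. The code was tested on simulated data. The number of arrays limits the precision.

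The members and gene lists were chosen with earlier results of these data known. Every member and probe set is named, with up to 4 tested genes of each list and comparison by smallest p. The 3 genes most correlated with each member and up to 4 passing markers are named too. Crem, Dusp6, Cd79a, Ncr1, Klra8 and Klre1 were named after their values were seen. Same-numbered arrays deviated together across genes at r = 0.13, 0.19 and 0.33 between SKG and BALB and 0.47, 0.45 and 0.70 between transfers. All exceeded 0.1, the threshold set for fitting the numbers as pairs. A fit with a replicate block is reported where it alters the call of a member or of a gene or marker named in that comparison. Replicates 1 and 2 of opposite groups correlated about as much (0.16 and 0.16, 0.44 and 0.41), so that threshold cannot show that same-numbered arrays are pairs. The block thus acts mainly on replicate 3. Alternatives were other added constants (1 and 64), filters, scalings, probe set rules and variance models, the block, and leaving out each array.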

Additional observations from a re-analysis of the deposited data

Results flagged for a closer look

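The difference between the 2 comparisons, that is SKG minus BALB less IFN-γ-deficient minus IL-6-deficient transfer on the log2 scale, passed limma's interaction test for a number of the genes named. Some listed genes that are not named here passed as well. Of all tested genes, 8.23% passed without the replicate block and 25.6% with it. Among the members the difference passed only with the block: Egr1 at 1.19, Egr3 at -0.60 and Nr4a1 at -0.73, with limma adjusted p of 0.32, 0.79 and 0.40 without it. The other genes given below passed in both fits. Among immediate-early genes Dusp1 was at -2.42 and Dusp5, another MAP kinase phosphatase, at -1.37. Among upstream regulators Prkcd was at -1.19, Hdac5 at -1.26, Creb1 at 0.80 and Ppp3cb at 0.95. Among reported Egr2 and Egr3 targets Ccl1 was at 5.33, higher in SKG than in BALB and with a lower mean in the IFN-γ-deficient than in the IL-6-deficient transfer, Ndrg1 at -2.25 and Id3 at -2.0. Among genes linked to Nr4a factors Gzmb was at 2.94, Havcr2, encoding the receptor TIM-3, at 3.68, Ikzf2 at 2.47, Foxp3 at 1.54 and Pdcd1 at 1.53. Limma adjusted p without the block ran from 5.8e-05 for Ccl1 to 0.049 for Creb1. Labelled stimulation, age, tissue and transfer differ together between the comparisons and cannot be told apart.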

How the results depend on the processing

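The count of members called in SKG against BALB (5) stayed within 1.5 times under 16 of 18 alternatives and was 5 whichever array was left out; it was 3 without normalization and 1 with all 12 arrays in 1 fit, whose error includes the spread of the transfer arrays. The transfer count (0) was 3 with the replicate block and 4 with replicates 1 and 2 only, chosen after seeing the data; the interaction count (0) was 3 under each of these. The block changed no other call of a member. Leaving out arrays kept both counts at 0. Signs turned as follows. In SKG against BALB, Egr2 was at 0.041 with replicates 1 and 2 only and from -0.035 to 0.031 with an array left out. In the transfers Egr2 was at -0.10 without normalization, at -0.092 with the median of probe sets and from -0.019 to 0.040 with an array left out; Egr1 ran from -0.84 to 0.28 and Egr3 from -1.42 to 0.34, positive only without IL-6-deficient replicate 3. In the interaction, replicates 1 and 2 only gave 0.030 for Egr2, 0.41 for Nr4a2 and 0.060 for Nr4a3; Nr4a3 was at 0.050 without normalization and 0.033 with trimmed-mean scaling. With an array left out, the interaction ran from -0.043 to 0.032 for Egr2, -1.51 to 0.28 for Egr3, -0.73 to 0.71 for Nr4a2 and -0.24 to 0.38 for Nr4a3. Apart from the arrays named, the cause was not tested. Limits are 3 arrays a group, a scaling of the deposited values that the sources used here do not give, and near-floor signal at 5 of the 15 probe sets. Another is a BALB replicate whose label names no FR4 sort. The beta-actin 3′ to 5′ ratio, higher on every BALB array than on every SKG array, is a further limit.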
